A study of Mus musculus with 30 samples.

Results

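The expression of 10 heat shock protein and chaperone genes was examined in the dorsal hippocampus of mice 1 h after a spatial learning session. The genes are Hspa8, Hspa1a, Hspa1b, Hspa5, Hsph1, Dnajb1, Hsp90aa1, Hsp90ab1, Hsp90b1 and Hspb1. They were taken by symbol from a table of 24883 rows, where each occupied 1 row, and all 10 were among the 13184 rows with a mean of at least 1 FPKM (fragments per kilobase of transcript, scaled to the mapped fragments of the library) that entered the test. The study asked how point mutations of the tyrosine Y397 of CREST (gene Ss18l1), a subunit of the neuronal BAF chromatin remodelling complex, bear on object location memory, in which a mouse recognises that an object has been moved. There were 30 libraries, each from the hippocampal tissue of 1 adult male C57BL/6J mouse, with 6 mice in each of 5 conditions. VEH-HC mice were handled but stayed in the home cage. VEH-T10 mice were trained for 10 min, a session long enough for long-term memory, and VEH-T3 mice for 3 min, a session that is too short. All 3 of these groups had received the transfection reagent in vivo-jetPEI without DNA. Y397F-T10 mice had received a plasmid for HA-tagged mouse CREST with tyrosine replaced by phenylalanine and were trained for 10 min, and Y397D-T3 mice had received the mutant with aspartic acid in its place and were trained for 3 min. Phosphorylation of this residue was not shown. The plasmids were infused 3 days before training and were driven by a short CaMK2 promoter, which is active in excitatory neurons, while the endogenous gene was left in place. The vehicle mice received no plasmid and no wild-type CREST plasmid group was analysed here, so an effect of the mutation and one of the infused DNA or of added CREST cannot be told apart.

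Chaperones bind unfolded or partly folded proteins and hold, refold or hand them on. HSP70 proteins do this in cycles of ATP hydrolysis that J-domain proteins start and nucleotide exchange factors complete, and HSP90 proteins take over clients such as kinases and steroid receptors at a late stage of folding. Neurons hold large amounts of the constitutive forms, whereas the inducible forms are under the transcription factor HSF1 in the cytosol and under the unfolded protein response in the endoplasmic reticulum (ER).

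The values are FPKM as the authors deposited them, and differences are given on the log2(FPKM + 1) scale from 1 limma model of all 30 libraries. A gene was called when its Benjamini-Hochberg adjusted p over the 13184 tested rows was under 0.05. FPKM holds no read totals, and relative depth, read off the value steps of 2642 rows of very low level, ranged from 0.812 to 1.24 of the median library. CA1 pyramidal neuron markers were present in every library, with summed levels from 144 to 222 FPKM. The libraries differed in the surrounding tissue they held: 8 choroid plexus markers summed to between 10.4 and 12843 FPKM, with medians of 3162 in VEH-HC, 1962 in VEH-T3, 124 in Y397D-T3, 102 in VEH-T10 and 56.1 in Y397F-T10. In bulk tissue, fewer cells of a type and less RNA per cell cannot be told apart. The 4 comparisons with VEH-HC share the same 6 home cage mice, so a low or high value among those mice enters all 4.

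Hsph1 was the one chaperone of the 10 that was called in all 4 comparisons of a trained condition with VEH-HC, each time higher, and Hspa1b joined it in VEH-T10. In VEH-T10, 2 of the 10 were called higher and 0 lower, where 0.319% of all tested rows were called higher and 0.501% lower. In VEH-T3 it was 1 of 10 (2.23% of all rows higher and 2.94% lower), in Y397F-T10 1 of 10 (0.47% and 0.66%) and in Y397D-T3 1 of 10 (3.91% and 3.16%). In the mean of the 4 trained conditions against VEH-HC, 2 of 10 were higher, Hsph1 and Hspa1b, with 3.86% of all rows higher and 5.79% lower. The median difference of the 10 genes was 0.11 in both VEH-T10 and Y397F-T10, 0.05 for VEH-T3 and 0.00 for Y397D-T3, and the median of all tested rows lay between -0.04 and -0.03. The increases were small, at most 1.29-fold on the FPKM + 1 scale.

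**Figure D1:**
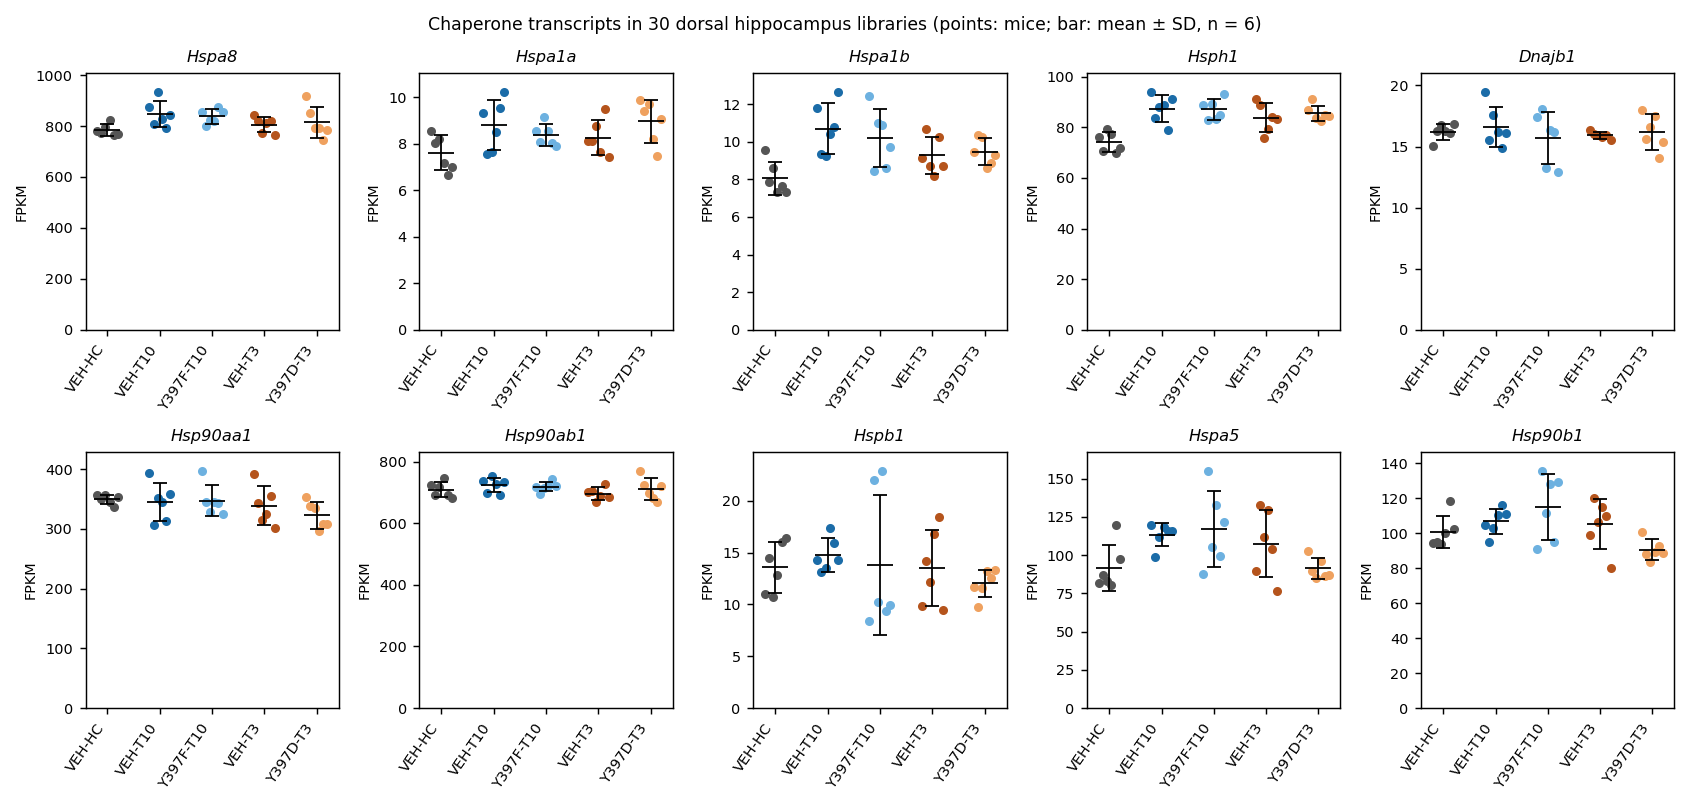
FPKM of the 10 chaperone genes (y axis, from 0) in each of the 30 mice (points), by condition (x axis), with the mean and SD of 6 mice as bars. The 6 VEH-HC mice lie between 69.9 and 79.3 FPKM for Hsph1 and all mice of Y397F-T10 and Y397D-T3 lie above them, while Hsp90ab1 stays within 668 to 771 FPKM in all 30 mice.

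**Figure D2:**
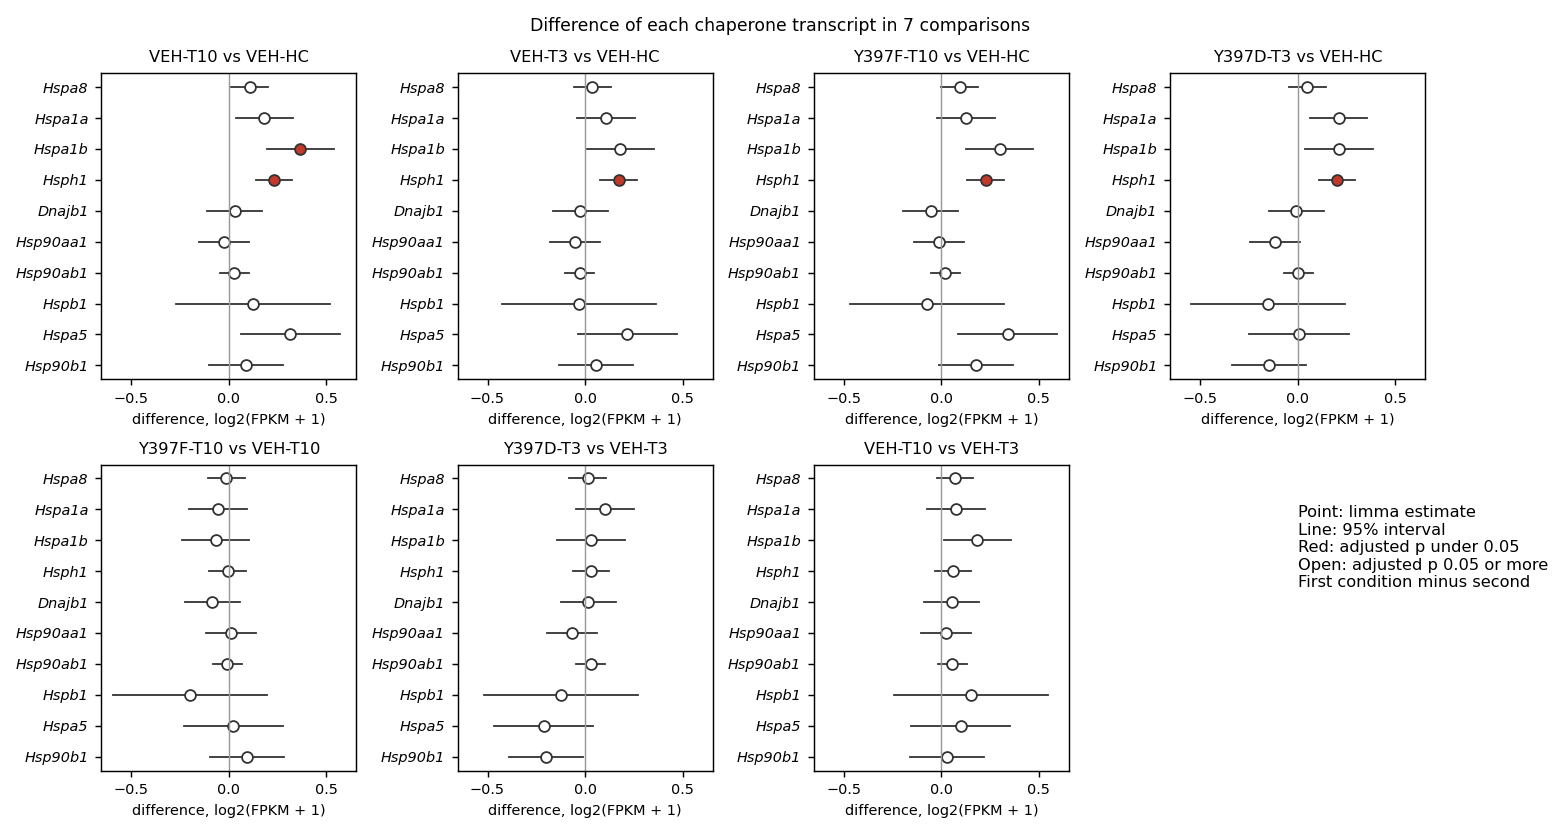
Difference of each chaperone gene on the log2(FPKM + 1) scale (x axis) in 7 comparisons (panels), as the limma estimate (point) with its 95% interval (line), filled red where the adjusted p was under 0.05. Hsph1 is red in the 4 comparisons with VEH-HC and Hspa1b in VEH-T10 against VEH-HC, and no point is red in the lower row, which compares trained conditions with each other.

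Hsph1 (chr5:149614287-149636376, minus strand, GRCm38, 18 exons in its longest coding transcript) encodes HSP110, an HSP70 relative that acts as a nucleotide exchange factor for HSP70 and takes part in pulling protein aggregates apart. The VEH-HC mice ran from 69.9 to 79.3 FPKM with a median of 74.0, and the VEH-T10 mice from 78.9 to 93.9 with a median of 88.4. The range was 82.8 to 93.1 (median 87.0) in Y397F-T10, while VEH-T3 mice ran from 75.9 to 91.1 (median 83.7) and Y397D-T3 mice from 82.3 to 91.0 (median 84.6). All mice of Y397F-T10 and Y397D-T3 lay above every home cage mouse, and 1 mouse of VEH-T10 and 1 of VEH-T3 fell into the home cage range. Among all tested rows, groups that did not overlap in this direction made up 0.554% in Y397F-T10 and 2.5% in Y397D-T3, against 0.789% in VEH-T10 and 0.675% in VEH-T3. Hsph1 averaged 74.2 ± 3.94 FPKM (SD, n = 6) in VEH-HC and between 83.8 ± 5.69 and 87.4 ± 5.36 in the trained conditions. The difference was 0.23 in VEH-T10 (SE 0.046, limma adjusted p = 0.0147), 0.17 in VEH-T3 (adjusted p = 0.0307), 0.23 in Y397F-T10 (adjusted p = 0.0264) and 0.20 in Y397D-T3 (adjusted p = 0.0087), all with the same SE. Conditions accounted for 59.8% of the variance of Hsph1 between libraries, the highest share among the 10 genes.

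In the mean of the trained conditions Hsph1 was higher by 0.21 (limma adjusted p = 0.00152). Its call in Y397D-T3 held with median centring (0.24, limma adjusted p = 0.0218). The calls of Hsph1 in VEH-T10, VEH-T3 and Y397F-T10 lie near the threshold. They ended in VEH-T10 without VEH-HC replicate 2 (0.22, adjusted p = 0.0543) or VEH-T10 replicate 6 (0.22, adjusted p = 0.0579), and centring the libraries on their median ended those in VEH-T10 (0.26), VEH-T3 (0.19) and Y397F-T10 (0.25), where the SE was 0.0636 and the limma adjusted p between 0.0599 and 0.0935. Markers of thalamus, which lies beneath the dorsal hippocampus, moved against Hsph1: the 5 of them summed to 22.8 to 43.2 FPKM in VEH-HC, 15.4 to 59.8 in VEH-T3, 14.1 to 31.0 in Y397D-T3, 13.6 to 28.2 in VEH-T10 and 9.12 to 34.4 in Y397F-T10, none was at 0 in any library, and Slc17a6 among them was called lower in VEH-T10, Y397F-T10 and Y397D-T3. Over the 30 libraries Hsph1 and the summed log2 level of these markers had Pearson r = -0.73 and Spearman rho = -0.71 (adjusted permutation p = 0.000333 and 0.002 over 100 relations of members and marker lists), r = -0.61 without the 2 libraries farthest from the median marker level, and r = -0.46 within conditions. Meningeal fibroblast markers also moved against Hsph1, with r = -0.49 and rho = -0.56 (adjusted permutation p = 0.0338 and 0.0112). Their r was -0.47 without 2 libraries and -0.48 within conditions. Pan-neuronal markers moved with Hsph1, with r = 0.58 and rho = 0.58 (adjusted permutation p = 0.012 and 0.0101), r = 0.60 without 2 libraries and r = 0.70 within conditions. They summed to 2435 to 2804 FPKM in VEH-HC and 2742 to 3046 in Y397D-T3, none was at 0 in any library, and Camk2a and Rbfox3 among them were called higher in Y397D-T3. With the thalamus marker level as a covariate, chosen after the data were seen, Hsph1 differed by 0.15 in VEH-T10 (limma adjusted p = 0.0919), 0.13 in VEH-T3 (0.0626), 0.15 in Y397F-T10 (0.0925), 0.12 in Y397D-T3 (0.17) and 0.14 in the mean of the trained conditions (0.0434). A choroid plexus covariate, also chosen later, ended the call in VEH-T10 (0.21, limma adjusted p = 0.0525) and a pan-neuronal one that in Y397D-T3 (0.12, adjusted p = 0.0695), and the other calls of Hsph1 held under these 2.

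Hspa1b (chr17:34956436-34959238) and Hspa1a (chr17:34969190-34972156) encode the stress-inducible cytosolic HSP70 proteins. They are single-exon genes that lie next to each other on the minus strand. Of the 150-base windows of the Hspa1b transcript, 40.5% occur unchanged in Hspa1a, so the split of reads between both genes is uncertain. Hspa1b ran from 7.34 to 9.57 FPKM among VEH-HC mice (median 7.74) and from 9.26 to 12.6 among VEH-T10 mice (median 10.6). Its median was 8.93 in VEH-T3, 9.39 in Y397D-T3 and 10.3 in Y397F-T10. All 24 trained mice lay above the VEH-HC median, and the VEH-HC mouse at 9.57 overlapped with each trained condition. Hspa1b averaged 8.06 ± 0.875 FPKM (SD, n = 6) in VEH-HC and 10.7 ± 1.33 in VEH-T10, a difference of 0.37 (SE 0.0846, limma adjusted p = 0.0319). The differences that did not pass were 0.30 in Y397F-T10 (adjusted p = 0.0732), 0.18 in VEH-T3 (adjusted p = 0.204) and 0.21 in Y397D-T3 (adjusted p = 0.118).

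Hspa1a had medians of 7.61 FPKM in VEH-HC, 8.11 in VEH-T3, 9.23 in Y397D-T3, 8.91 in VEH-T10 and 8.31 in Y397F-T10. Its ranges overlapped with VEH-HC in every trained condition, and the largest differences, 0.21 in Y397D-T3 (SE 0.0723, adjusted p = 0.0729) and 0.18 in VEH-T10 (adjusted p = 0.217), did not pass in limma. The sum of Hspa1a and Hspa1b, which does not depend on the split of reads between them, differed by 0.30 in VEH-T10 (SE 0.0767, adjusted p = 0.0577) and by 0.23 in the mean of the trained conditions (adjusted p = 0.0193). The VEH-T10 call of Hspa1b ended without VEH-HC replicate 2, 4, 5 or 6 or VEH-T10 replicate 1, 4, 5 or 6, with adjusted p from 0.05 to 0.113, with median centring (0.40, adjusted p = 0.0583), with the choroid plexus covariate (0.34, adjusted p = 0.0717) and with the thalamus covariate (0.25, adjusted p = 0.129). With the pan-neuronal marker covariate it was 0.32 (adjusted p = 0.034). The thalamus markers and Hspa1b had r = -0.61 and rho = -0.56 over 30 libraries (adjusted permutation p = 0.00533 and 0.0101), r = -0.53 without the 2 libraries farthest from the median marker level, and r = -0.33 within conditions.

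Promoter sequences were at hand for 7 of the 10 genes. The stretches that hold 2-unit matches to the heat shock element, the motif of HSF1, are shown. The 250 bases before the RefSeq start sites of Hspa1a and Hspa1b differ at 3 positions. A heat shock element of 2 units, GAANNTTC or TTCNNGAA on either strand, occurred before the RefSeq starts of Hspa1a, Hspa1b, Hsph1 and Hspb1. That is 4 of 7 genes, against 12.8% of 32851 promoters of the same length. The 3-unit form, GAANNTTCNNGAA or TTCNNGAANNTTC, which contains 2-unit forms, occurred in 0 of 7 and in 0.466% of all promoters. Only exact letters were searched, so longer elements with a mismatched unit were not counted, and their absence is not shown. The stretches below run 5′ to 3′ on the strand of the gene, from RefSeq on GRCm38.p6, with the 2-unit elements in capitals. They are chr17:34959239-34959388 (minus strand) for Hspa1b, chr5:149636352-149636381 (minus strand) for Hsph1 and chr5:135887769-135887918 (plus strand) for Hspb1.
Hspa1b: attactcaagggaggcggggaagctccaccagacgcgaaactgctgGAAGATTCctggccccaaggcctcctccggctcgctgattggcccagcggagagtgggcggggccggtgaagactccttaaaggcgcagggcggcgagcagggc
Hsph1: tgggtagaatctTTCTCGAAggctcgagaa
Hspb1: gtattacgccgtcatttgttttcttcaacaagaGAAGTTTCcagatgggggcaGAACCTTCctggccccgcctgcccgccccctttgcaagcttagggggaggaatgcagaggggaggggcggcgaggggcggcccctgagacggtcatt
The element ends 97 bases before the start in Hspa1a and Hspa1b and 26 bases before the first of 2 RefSeq starts of Hsph1 (47 before the other), and Hspb1 has 1 ending at 110 and 1 at 90 bases. The Hsph1 element lies inside the GENCODE gene, past its annotated start, so it is upstream of the RefSeq starts only. A match is a description of the letters and not of binding.

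Hspa8 and the cytosolic HSP90 genes were the most abundant of the 10, and none of them was called. Hspa8 (chr9:40800984-40810087) encodes HSC70, which besides folding strips clathrin from vesicles. It ran from 766 to 826 FPKM among VEH-HC mice (median 777), from 791 to 933 among VEH-T10 mice (median 836) and from 801 to 876 among Y397F-T10 mice (median 838). The median was 815 in VEH-T3 and 793 in Y397D-T3. All 6 mice of VEH-T10 and of Y397F-T10 lay above the VEH-HC median, but the ranges overlapped, and the differences of 0.11 (SE 0.0462, limma adjusted p = 0.271) and 0.09 (adjusted p = 0.3) did not pass. Thalamus markers moved against Hspa8 over the 30 libraries, with r = -0.49 and rho = -0.57 (adjusted permutation p = 0.0338 and 0.0101). The r was -0.41 without the 2 libraries farthest from the median marker level and -0.28 within conditions. Transcripts of 4 other genes share 55.4% of the 150-base windows of Hspa8, most of them with Gm15459, so part of its level is uncertain. Dnajb1 (chr8:83608193-83612653), an HSP40 that delivers substrates to HSP70, showed little spread between conditions: its medians were 16.2 FPKM in VEH-HC, 15.9 in VEH-T3, 16.1 in Y397D-T3, 16.1 in VEH-T10 and 16.2 in Y397F-T10. Its differences from VEH-HC lay between -0.05 and 0.03 (SE 0.0688). Conditions accounted for 5.92% of its variance.

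Neither cytosolic HSP90 gene was called in any comparison, and Hsp90aa1 was called lower in Y397D-T3 when libraries were weighted by their spread (-0.16, limma adjusted p = 0.0144). Hsp90ab1 (chr17:45567775-45573271), the constitutive form, had medians of 705 FPKM in VEH-HC, 695 in VEH-T3, 709 in Y397D-T3, 730 in VEH-T10 and 719 in Y397F-T10. Its differences from VEH-HC lay between -0.03 and 0.03 (SE 0.0366), and its coefficient of variation over the 30 libraries, 3.54%, was below that of every row within 2-fold of its mean, whose median was 10.7%. Hsp90aa1 (chr12:110690605-110702728), the more inducible form, had medians of 352 FPKM in VEH-HC, 335 in VEH-T3, 321 in Y397D-T3, 348 in VEH-T10 and 344 in Y397F-T10, with values spread from 296 to 398 over the 30 mice but only from 336 to 357 within VEH-HC. Its largest difference, -0.12 in Y397D-T3 (SE 0.0625, limma adjusted p = 0.243), did not pass. Dentate granule cell markers moved against it between libraries, with r = -0.78 and rho = -0.73 (adjusted permutation p = 0.000333 and 0.002), r = -0.67 without the 2 libraries farthest from the median marker level, and r = -0.79 within conditions. These 4 markers summed to between 45.5 and 153 FPKM, none at 0, and their part in the level of Hsp90aa1 was not tested. Of its 150-base windows, 36.2% occur in transcripts of 3 other genes.

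Hspa5 and Hsp90b1, the ER members of the HSP70 and HSP90 families, varied together, with coefficients of variation of 18.4% and 13.4% over the 30 libraries. Hspa5 (chr2:34771970-34777547) encodes BiP, which binds nascent chains in the ER and keeps the sensors of the unfolded protein response inactive. VEH-HC mice ran from 80.2 to 120 FPKM (median 85.2), VEH-T10 mice from 98.8 to 120 (median 116) and Y397F-T10 mice from 87.8 to 155 (median 113). After 3 min of training, VEH-T3 mice ran from 76.6 to 133 (median 108) and Y397D-T3 mice from 85.3 to 103 (median 88.3). In VEH-T10, 5 of 6 home cage mice lay below every trained mouse and VEH-HC replicate 5, at 120, among the highest. The differences from VEH-HC were 0.32 in VEH-T10 (SE 0.124, limma adjusted p = 0.212), 0.34 in Y397F-T10 (adjusted p = 0.161), 0.22 in VEH-T3 (adjusted p = 0.318) and 0.01 in Y397D-T3 (adjusted p = 0.979), and none passed. Hsp90b1 (chr10:86690209-86705509) encodes GRP94, the HSP90 of the ER. Its medians were 97.4 FPKM in VEH-HC, 108 in VEH-T3, 89.2 in Y397D-T3, 108 in VEH-T10 and 120 in Y397F-T10. The largest difference from VEH-HC, 0.18 in Y397F-T10 (SE 0.0925, limma adjusted p = 0.326), did not pass. Pan-neuronal markers moved against Hsp90b1 between libraries, with r = -0.65 and rho = -0.64 (adjusted permutation p = 0.0022 and 0.006), r = -0.58 without the 2 libraries farthest from the median marker level, and r = -0.65 within conditions. Markers of astrocytes (r = 0.525, rho = 0.578), microglia (0.495, 0.606) and meningeal fibroblasts (0.575, 0.504) moved with Hsp90b1, with adjusted permutation p up to 0.0351. Within conditions their r was 0.54, 0.52 and 0.55. Which of these tissues bears on Hsp90b1 was not tested.

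The choroid plexus marker sums were split at a gap into 2 clusters of 15 libraries, 10.4 to 365 and 921 to 12843 FPKM. The split was made after the data were seen and does not establish 2 kinds of library. Since the sums spread unevenly, no r over all 30 is given for Hspa5, Hsp90b1 and Hspb1. All VEH-HC mice (921 to 5621 FPKM) lay in the upper cluster, so the r values within clusters also hold differences between conditions. In the upper cluster the mean log2 marker level and Hspa5 had r = 0.66 and rho = 0.59 (adjusted permutation p = 0.04 and 0.0737 over 6 relations, r = 0.54 without the 2 libraries farthest from the median marker level). Hsp90b1 there had r = 0.56 and rho = 0.47 (adjusted permutation p = 0.0578 and 0.163, r = 0.59 without 2 libraries). In the lower cluster r was 0.06 for Hspa5 and 0.04 for Hsp90b1 (both with adjusted permutation p = 0.878). In Y397F-T10, the mice with marker sums of 10449 and 6360 FPKM had 155 and 133 FPKM of Hspa5, and the other 4 mice, with sums between 29.1 and 61.9, had 87.8 to 121. In VEH-T10 the spread was smaller: 2 mice with sums of 3808 and 4487 had 118 and 120 FPKM, and the 4 with 10.4 to 150 had 98.8 to 116. The VEH-HC mouse with 120 FPKM of Hspa5 had the highest marker sum of its group, 5621. With the choroid plexus marker level as a covariate, a setting added after the data were seen, Hspa5 was called higher in VEH-T10 (0.49, SE 0.0927, limma adjusted p = 0.0179), in Y397F-T10 (0.49, adjusted p = 0.014), in VEH-T3 (0.30, adjusted p = 0.0398) and in the mean of the trained conditions (0.38, adjusted p = 0.00466), but not in Y397D-T3 (0.23, adjusted p = 0.18). It was also called in VEH-T10 and Y397F-T10 with the thalamus covariate (0.60 and 0.61) or the pan-neuronal covariate (0.44 and 0.38). Hspa5 had r = 0.66 with the choroid plexus markers in the upper cluster and 0.06 in the lower, and a difference in slope was not tested. Each covariate assumes 1 slope for all libraries. No VEH-HC mouse had a choroid plexus sum below 921 FPKM, so the adjustment of trained mice with lower sums rests on that slope.

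**Figure D3:**
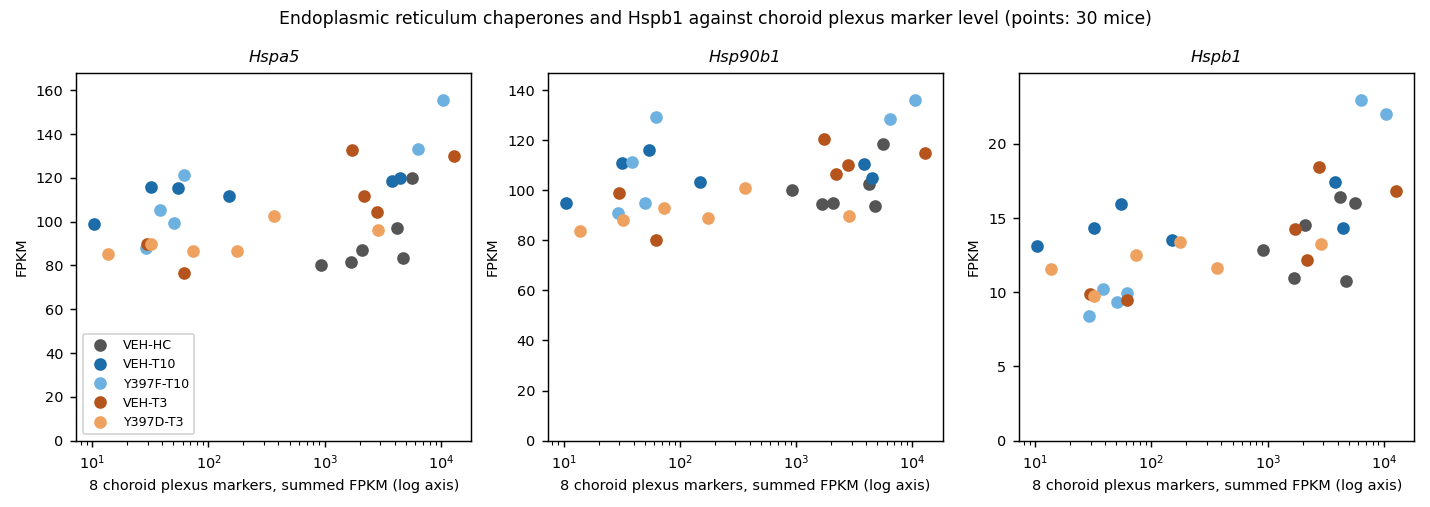
FPKM of Hspa5, Hsp90b1 and Hspb1 (y axes, from 0) against the summed FPKM of 8 choroid plexus markers (x axis, log scale) in 30 mice, coloured by condition. The Y397F-T10 mice at 6360 and 10449 FPKM of markers hold 22.9 and 22.0 FPKM of Hspb1, and the other 4 mice of that condition, at 29.1 to 61.9 FPKM of markers, hold 8.42 to 10.2.

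The ER stress response element, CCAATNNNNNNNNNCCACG on either strand, is the site at which the unfolded protein response acts through ATF6 and NF-Y. It occurred before the RefSeq starts of Hspa5 and Hsp90b1, 2 of the 7 genes, and in 0.113% of all promoters. Each match contains a CCAAT box, which by itself occurred in 33.8% of promoters. The stretches are chr2:34772020-34772049 (plus strand) for Hspa5 and chr10:86705510-86705694 (minus strand) for Hsp90b1, from RefSeq on GRCm38.p6, and are shown with the element in capitals since both genes share it. Hspa5 has 1 exact match and Hsp90b1 has 2, the second on the opposite strand. Elements with a mismatched letter were not searched here either, so these are not counts of all elements. The Hspa5 element lies inside the GENCODE gene, past its annotated start.
Hspa5: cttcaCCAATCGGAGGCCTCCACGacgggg
Hsp90b1: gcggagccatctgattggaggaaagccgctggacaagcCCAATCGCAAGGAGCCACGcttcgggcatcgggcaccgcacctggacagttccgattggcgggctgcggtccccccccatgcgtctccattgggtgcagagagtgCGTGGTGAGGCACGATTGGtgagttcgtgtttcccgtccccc

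Hspb1 (chr5:135887919-135889563) encodes HSP25, a small heat shock protein that holds unfolded proteins without ATP and stabilises actin. VEH-HC mice ran from 10.8 to 16.4 FPKM (median 13.7), VEH-T10 mice from 13.1 to 17.4 (median 14.3) and Y397F-T10 mice from 8.42 to 22.9 (median 10.1). After 3 min of training, VEH-T3 mice ran from 9.47 to 18.4 (median 13.2) and Y397D-T3 mice from 9.78 to 13.4 (median 12.1). All ranges overlapped, the differences from VEH-HC lay between -0.15 and 0.12 (SE 0.193) and none passed. With a coefficient of variation of 26.4% it was the most variable of the 10 genes, and 94.5% of the rows within 2-fold of its mean varied less. Hspb1 moved with meningeal fibroblast markers over the 30 libraries (r = 0.73 and rho = 0.66, adjusted permutation p = 0.000333 and 0.00425, r = 0.69 without 2 libraries and 0.83 within conditions). It also moved with thalamus markers (r = 0.55 and rho = 0.57, adjusted permutation p = 0.0169 and 0.0101, r = 0.55 without 2 libraries and 0.78 within conditions). Pan-neuronal (r = -0.565, rho = -0.561) and CA1 pyramidal neuron markers (-0.533, -0.504) moved against Hspb1, with adjusted permutation p up to 0.0342. Within conditions their r was -0.64 and -0.53. With the choroid plexus markers it had r = 0.62 and rho = 0.59 in the upper cluster (adjusted permutation p = 0.04 and 0.0737, r = 0.66 without 2 libraries) and r = 0.19 in the lower (adjusted permutation p = 0.744). With the thalamus covariate, Hspb1 was called higher in VEH-T10 (0.76, limma adjusted p = 0.0189), in Y397F-T10 (0.54, adjusted p = 0.0472, against -0.08 without the covariate) and in the mean of the trained conditions (0.51, adjusted p = 0.015, against -0.03). Of its 150-base windows, 36.6% occur in Hsp25-ps1.

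The direct comparisons of trained conditions address whether the CREST mutants or the length of training changed these genes. In Y397F-T10 against VEH-T10, limma called 0 of the 10 genes and 0% of all rows, with 0 of the 10 and 3.78% of all rows at an unadjusted p under 0.05. In Y397D-T3 against VEH-T3 it called 0 of the 10 and 0.00758% of all rows, and 1 of the 10 had an unadjusted p under 0.05, near the 7.87% of all rows. It was Hsp90b1 (-0.20, SE 0.0925, limma unadjusted p = 0.0378, adjusted p = 0.615). All 6 Y397D-T3 mice lay below the VEH-T3 median of 108 FPKM for Hsp90b1, and also below the VEH-T3 median of 108 for Hspa5 (-0.21, adjusted p = 0.692). In VEH-T10 against VEH-T3 it called 0 of the 10 and 0.0455% of all rows, and 1 of the 10 had an unadjusted p under 0.05, near the 8.15% of all rows. It was Hspa1b (0.19, SE 0.0846, limma unadjusted p = 0.0372, adjusted p = 0.601), with all 6 VEH-T10 mice above the VEH-T3 median of 8.93 FPKM.

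The intervals say how large a difference the 6 mice per condition left room for. For Hsph1 the 95% interval was -0.10 to 0.09 in Y397F-T10 against VEH-T10, -0.06 to 0.12 in Y397D-T3 against VEH-T3, and -0.03 to 0.15 in VEH-T10 against VEH-T3. For Hspa1b the intervals were -0.24 to 0.11, -0.14 to 0.20 and 0.01 to 0.36 in the same order. For Hspa5 they were wider, -0.23 to 0.28, -0.47 to 0.04 and -0.16 to 0.35. All bounds of Hsph1 lie nearer to 0 than its difference of 0.23 between VEH-T10 and VEH-HC, and those of Hspa5 do not all lie nearer to 0 than its 0.32.

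Of 97 other genes of the chaperone pathways, placed in 9 lists, 94 were tested, and the co-chaperone Chordc1 and the factor Hsf1 were called higher most often. In Y397D-T3, 4 of the 94 were higher and 4 lower (3.91% and 3.16% of all rows), against 3 and 3 in VEH-T3 (2.23% and 2.94%), 2 and 1 in VEH-T10 (0.319% and 0.501%) and 1 and 0 in Y397F-T10 (0.47% and 0.66%). The counts in Y397D-T3 and VEH-T3 are near those shares. Chordc1 encodes CHP-1, an HSP90 co-chaperone, and its lowest, median and highest FPKM were 15.8, 17.3 and 19.1 among home cage mice against 18.9, 21.8 and 23.1 among VEH-T10 mice. It was higher by 0.27 in VEH-T10 (SE 0.0538, limma adjusted p = 0.0147), 0.21 in VEH-T3 (adjusted p = 0.0242) and 0.29 in Y397F-T10 (adjusted p = 0.016), and did not pass in Y397D-T3 (0.16, adjusted p = 0.0748). Hsf1, the activator of the heat shock genes, was higher by 0.23 in VEH-T10 (SE 0.05, adjusted p = 0.0263), 0.18 in VEH-T3 (adjusted p = 0.0329) and 0.26 in Y397D-T3 (adjusted p = 0.00284), but not in Y397F-T10 (0.09, adjusted p = 0.368). All mice of VEH-T10, VEH-T3 and Y397D-T3 lay above every home cage mouse for Hsf1, as they did for 0.789%, 0.675% and 2.5% of all tested rows. The mitochondrial HSP70 gene Hspa9 fell by 0.16 in VEH-T10 (SE 0.0396, adjusted p = 0.0439) and by 0.17 in Y397D-T3 (adjusted p = 0.0116).

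Among the 20 other J-domain genes, Dnajb14, an ER membrane protein, was higher in VEH-T3 (0.37, limma adjusted p = 0.0451) and Y397D-T3 (0.47, adjusted p = 0.0103), and Dnajb5 was higher in Y397D-T3 (0.37, adjusted p = 0.0146). The ER-resident J-domain genes Dnajb9 and Dnajc10 fell in Y397D-T3, by 0.27 (adjusted p = 0.0113) and 0.21 (adjusted p = 0.0064). Dnajc10 also fell in VEH-T3, by 0.20 (adjusted p = 0.0181), as did the HSP70 cofactor genes Hspbp1, by 0.25 (adjusted p = 0.0334), and Bag6, by 0.11 (adjusted p = 0.0312). The list of 18 other genes of ER folding and the unfolded protein response leaves out these J-domain genes of the ER. Of the 18, 0 were called in VEH-T10, VEH-T3 and Y397F-T10 by limma, while 5, 3 and 3 had an unadjusted p below 0.05 (14.9%, 21.6% and 16.9% of all rows), and 1 was lower in Y397D-T3, the lectin chaperone gene Canx (-0.21, adjusted p = 0.00632). No gene on the lists of the CCT chaperonin (8 genes), mitochondrial chaperones (6) or other small heat shock proteins (5 tested of 8) was called in these comparisons. Hspa9, called lower in VEH-T10 and Y397D-T3, was listed with the HSP70 genes and not with the mitochondrial chaperones. Of the 19 genes tested on these lists, 6 in VEH-T3, 5 in Y397D-T3, 4 in Y397F-T10 and 1 in VEH-T10 had an unadjusted p under 0.05 in limma, against 21.6%, 24.9%, 16.9% and 14.9% of all rows. For comparison, of 10 neuronal activity genes 1 was called higher in VEH-T10, Fosb, and 1 in VEH-T3, Egr1. In Y397F-T10 it was 1, Fosb, with Dusp1 lower. In Y397D-T3 it was 6, among them Egr1 (0.55, adjusted p = 0.0087) and Arc (0.49, adjusted p = 0.0397). Of all rows, 0.319%, 2.23%, 0.47% and 3.91% were called higher in the same order. An unadjusted p under 0.05 in limma was met by 6, 7, 6 and 9 of the 10, against 14.9%, 21.6%, 16.9% and 24.9% of all rows. The median differences of the 10 were 0.32, 0.27, 0.26 and 0.43. Fos was called in the mean of the trained conditions alone (0.41, adjusted p = 0.0196).

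**Figure D4:**
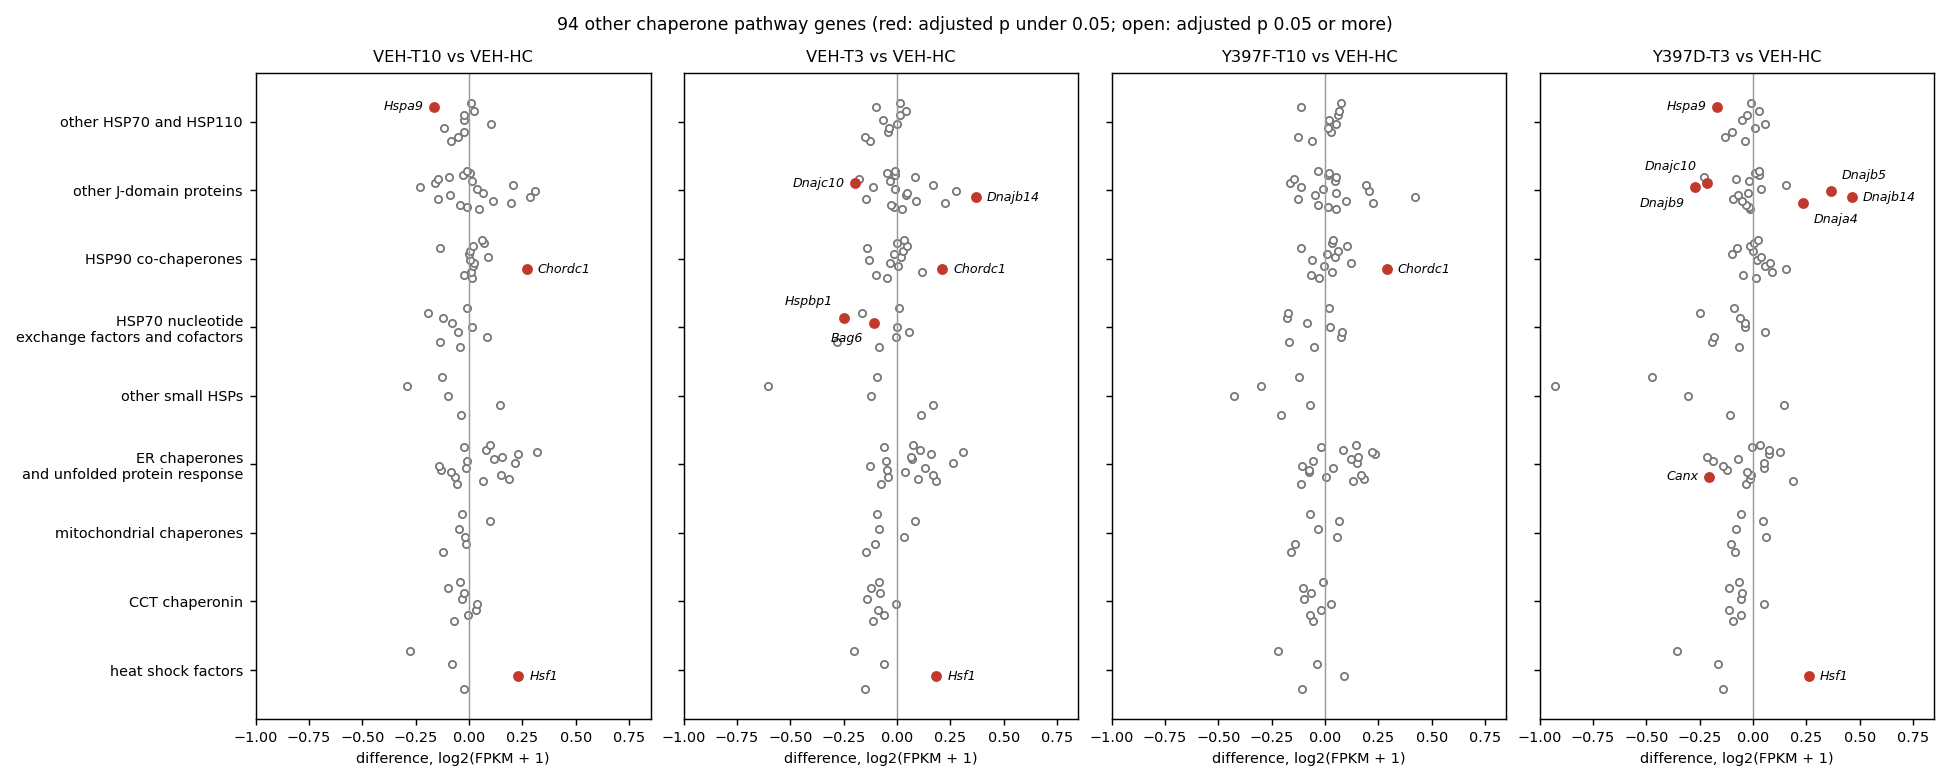
Difference from VEH-HC on the log2(FPKM + 1) scale (x axis) of 94 other chaperone pathway genes in 9 lists (y axis) for the 4 trained conditions, with 1 point per gene, red and named where the adjusted p was under 0.05. Chordc1 is red in VEH-T10, VEH-T3 and Y397F-T10 and Hsf1 in VEH-T10, VEH-T3 and Y397D-T3, while most genes lie within 0.2 of 0.

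Across the 30 libraries the closest pairs were the ER genes and the abundant cytosolic ones. These correlations describe libraries that also share depth, tissue content and condition, and carry no test. Hspa5 and Hsp90b1 had r = 0.90 (rho = 0.89) over the 30 libraries and 0.91 within conditions. Hspa8 and Hsp90ab1, both constitutive and cytosolic, had r = 0.82 (rho = 0.80) and 0.86 within conditions. Hspa1a and Hspa1b, which share reads, had r = 0.73 (rho = 0.71) and 0.71 within conditions, and Hspa1b and Hsph1 had r = 0.71 (rho = 0.68) and 0.46 within conditions. Hsph1 and Hspa8 had r = 0.65 (rho = 0.74) and 0.56 within conditions. Hspb1 went with the ER genes, with r = 0.65 (rho = 0.58) to Hspa5, and Dnajb1 was close to 0 with Hsph1 and Hspa1b, at r = -0.02 for both.

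**Figure D5:**
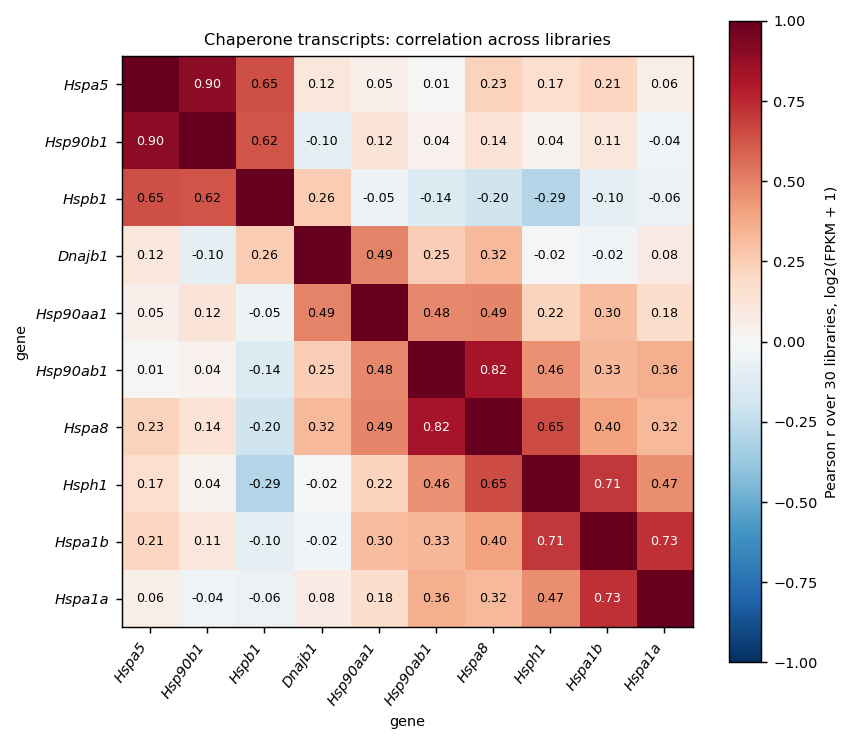
Pearson r of log2(FPKM + 1) over 30 libraries for each pair of the 10 chaperone genes (both axes list the genes, colour and number give r). Hspa5 with Hsp90b1 (0.90) and Hspa8 with Hsp90ab1 (0.82) are the darkest cells, and Hsph1 and Hspb1 have an r of -0.29.

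The tested rows most like each gene, by Pearson r over the 30 libraries and picked from all rows outside the 10, were genes of the same compartment for the ER members. For Hspa5 they were Pdia6 (r = 0.89), Calr (0.86) and Pdia3 (0.86), and for Hsp90b1 Calr (0.91), Pdia4 (0.90) and Pdia3 (0.90). Pdia3, Pdia4 and Pdia6 encode protein disulfide isomerases and Calr calreticulin, all of the ER lumen. The rows most like Hspa8 and Hsp90ab1 included Ppid, which encodes the HSP90-binding cyclophilin 40 (r = 0.79 and 0.73), and those most like Hsp90aa1 included Hspa4l, an HSP110 gene (0.81). For Hsph1 they were Clstn2 (0.84), Rnf182 (0.81) and Sema3e (0.78), for Hspa1b Thsd4 (0.79), Plxna1 (0.77) and Raver2 (0.76), and for Hspa1a Specc1 (0.63), Slc2a6 (0.63) and Adora1 (0.63), none of them a chaperone. Hspb1 was most like Kank2 (0.87), Hfe (0.87) and Crtap (0.86), and Dnajb1 most like Aifm3 (0.71), Ppp1r16a (0.69) and Fam210b (0.68).

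The levels, which FPKM gives per length of transcript, ran from Hspa8 with a mean of 818 FPKM over the 30 libraries, above 99.8% of the tested rows, through Hsp90ab1 (711), Hsp90aa1 (341), Hspa5 (104), Hsp90b1 (104), Hsph1 (83.6), Dnajb1 (16.1), Hspb1 (13.5) and Hspa1b (9.54) to Hspa1a (8.40). Most neighbours in this order did not cross in more than a few libraries. Hspa5 lay below Hsp90b1 in 14 of 30 libraries, so these 2 cannot be ranked, and Dnajb1 lay below Hspb1 in 6, Hspb1 below Hspa1b in 3, Hspa1b below Hspa1a in 3 and Hsp90b1 below Hsph1 in 2. The inducible HSP70 genes Hspa1a and Hspa1b had 44.8% and 49.0% of the tested rows below them.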

How the data were processed

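RNA from the hippocampal tissue of 30 mice was sequenced as paired-end reads on 2 instrument types, and which library ran on which is not given in the sources used here, so no batch term was fitted. Per the submitters' processing notes, the authors aligned reads with TopHat 2.1.1 to mm10 and ran Cufflinks 2.2.1, and the deposited table holds 1 FPKM value per gene and mouse. Values were tested as log2(FPKM + 1) with limma 3.58.1 in R 4.3.3, in 1 model of 5 conditions over those 13184 of 24883 rows whose mean reached 1 FPKM, with Benjamini-Hochberg adjustment. The fit was tested on simulated data. A pseudocount of 1 shrinks differences of low genes. Depth is unknown in absolute terms. Each library was 1 mouse, and the limma p-values measure the spread between mice. Marker relations used 100000 permutations, two-sided, of the libraries without regard to condition. Their p-values therefore also hold differences between conditions, and the r within conditions was not tested. Gene positions came from GENCODE on GRCm38, the build named mm10, and promoters from RefSeq. The 10 genes and all lists were chosen with earlier results of these data known. Pathway genes were named when called, at most 3 highest and 3 lowest per comparison, with Hspa9 named in Y397D-T3 beyond these. For likeness, the 3 rows most like each member by r were taken.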

Additional observations from a re-analysis of the deposited data

Results flagged for a closer look

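In 2 of the 50 groups of 6 mice, 1 per gene and condition, a single mouse stood apart from the others by Dixon's criterion, which chance meets in about 1 in 20 groups. Hsp90aa1 was 398 FPKM in Y397F-T10 replicate 1, and the next highest mouse of that condition had 345. Hsp90b1 was 118 FPKM in VEH-HC replicate 5, and the next highest home cage mouse had 103. The same VEH-HC mouse had the highest choroid plexus marker sum of its group, 5621 FPKM, and its part in the Hsp90b1 value was not tested.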

How the results depend on the processing

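The number of the 10 genes called was 2 in VEH-T10, 1 each in VEH-T3, Y397F-T10 and Y397D-T3, 2 in the mean of the trained conditions and 0 in the direct comparisons. A pseudocount of 0.1, no filter on low values and a replicate block left these counts as they were, the replicate block giving 2 in VEH-T10; same-numbered mice did not deviate together (median r from -0.105 to 0.228), so the numbers do not pair them. Centring on the library median gave 0 in VEH-T10, VEH-T3 and Y397F-T10. Unadjusted p-values gave 5 in VEH-T10, 2 in VEH-T3, 3 in Y397F-T10, 3 in Y397D-T3, 4 in the mean, 1 in VEH-T10 against VEH-T3 and 1 in Y397D-T3 against VEH-T3. Fitting only the libraries compared gave 0 in VEH-T3 and Y397F-T10. Array weights gave 3 in VEH-T10, Y397F-T10 and the mean, with Hspa5 added in each, and 2 in Y397D-T3. Summing Hspa1a and Hspa1b gave 1 in VEH-T10. Of the covariates, which were chosen after seeing the data, choroid plexus markers gave 1 in VEH-T10, 2 in VEH-T3 and 2 in Y397F-T10, thalamus markers 0 in VEH-T3, 3 in Y397F-T10 and 0 in Y397D-T3, and pan-neuronal markers 3 in VEH-T10, 3 in Y397F-T10 and 0 in Y397D-T3. All 3 covariates gave 3 in the mean, and the 2 that the thalamus covariate gave in VEH-T10 were Hspa5 and Hspb1, with Hsph1 and Hspa1b lost. Hspb1 turned from -0.08 to 0.54 in Y397F-T10 and from -0.03 to 0.51 in the mean with the thalamus covariate, and the cause was not tested. Leaving out 1 library gave 0 to 2 in VEH-T10, 0 to 1 in VEH-T3, 0 to 2 in Y397F-T10, 1 to 2 in Y397D-T3, 2 to 2 in the mean and 0 in the direct comparisons. Hsph1 lost its call in VEH-T3 without VEH-HC replicate 2, 4, 5 or 6 or VEH-T3 replicate 2 (adjusted p from 0.0508 to 0.0966), and in Y397F-T10 without VEH-HC replicate 2 or 5 or Y397F-T10 replicate 3 or 6 (0.0625 to 0.0707). Hspa1b gained one in Y397F-T10 without VEH-HC replicate 1 (0.048) or Y397F-T10 replicate 2 (0.0375), and Hspa1a in Y397D-T3 without Y397D-T3 replicate 5 (0.25, adjusted p = 0.0439). Of 2400 values with 1 library left out, 2378 kept direction and side of the threshold or differed in sign without being called, and 0 called values reversed. FPKM gives no counting error, so precision rests on the 6 mice per condition.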
